A study of Homo sapiens with 60 samples.

Results

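The genes described here are 45 interferon-stimulated and antigen presentation genes, followed through 60 RNA-seq libraries of HT29, an established human colorectal adenocarcinoma cell line. They were chosen by symbol, from a list of known genes of both kinds. All 45 had a row in the table of 60675 gene IDs, 44 of them passed the filter on low counts, and 37 had a mean CPM (the count scaled to the size of its library) of 1 or more over the 60 libraries. The values below concern those 37 unless stated. The cells had been exposed for 24 h to vehicle or to 1 of 8 plant extracts, each at a high, a medium and a low dose. The 3 vehicle libraries come from cells given DMSO, at 0.1% per the sample labels and 2% per the series text. For the extract libraries the sample labels give no share of DMSO. Yijin-tang and Soshiho-tang were water extracts. Longan Arillus, Zizyphi Semen, Schisandrae Fructus and Liriopis seu Ophiopogonis Tuber were ethanol extracts. These 6 were given at 500, 100 and 20 µg/mL, with 3 libraries per dose, or 2 for Soshiho-tang. A further 2 ethanol extracts had 1 library per dose, at 380, 76 and 15.2 µg/mL for Polygalae Radix and at 370, 74 and 14.8 µg/mL for Aucklandiae Radix. The labels name no interferon for any of these groups.

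Interferons are secreted proteins that bind receptors on the cell surface and activate JAK kinases, which phosphorylate STAT transcription factors. A complex that holds STAT2 and IRF9 binds a short DNA element, the interferon-stimulated response element (ISRE), and a second element, the gamma-activated site (GAS), is bound by STAT dimers. Target genes encode enzymes and binding proteins that restrict viruses, as well as the proteasome subunits, peptide transporter and class I molecules that display peptides to T cells. Many of them are also transcribed at a low level without added interferon.

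Promoter sequences of the 45 genes were searched for both elements where an entry was available. In the RefSeq promoters of GRCh38.p14, which span 250 bases before to 50 bases after a start, 37 of the 45 genes had an entry. The ISRE letters GAAANNGAAA, read on either strand, occurred in 24 of those 37 genes, or 64.9%, against 4.38% of 27305 genes with a promoter. The GAS letters TTCNNNGAA, which are their own reverse complement, occurred in 11 of the 37 (29.7%), against 9.38% of all genes, and 7 genes had both. The ISRE letters were found in 8 of 10 antiviral effectors, in all 3 of PARP9, DTX3L and PARP14 and in 6 of 8 other induced genes. They were in 3 of 6 class I genes (B2M, TAP1 and PSMB8) and in 3 of 6 genes of the ISG15 system and ubiquitin ligases. The 1 sensor had them, and the transcription factors had them in 0 of 3 (IRF1, IRF9 and STAT2). A match of letters is a description and no evidence of binding. The stretches below lie before the annotated exons of 7 genes that carry results further on, each written 5′ to 3′ on the strand of its gene, with every ISRE match in capitals.
OAS3, chr12:112938294-112938351, plus strand: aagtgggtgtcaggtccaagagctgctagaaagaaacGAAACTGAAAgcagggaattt
SAMD9, chr7:93118024-93118159, minus strand: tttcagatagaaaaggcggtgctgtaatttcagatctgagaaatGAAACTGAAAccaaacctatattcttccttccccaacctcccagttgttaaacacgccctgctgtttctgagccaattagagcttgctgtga
IFIT1, chr10:89392443-89392545, plus strand: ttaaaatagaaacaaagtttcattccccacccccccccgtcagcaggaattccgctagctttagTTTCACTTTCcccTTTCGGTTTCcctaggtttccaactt
IFIT3, chr10:89327817-89327893, plus strand: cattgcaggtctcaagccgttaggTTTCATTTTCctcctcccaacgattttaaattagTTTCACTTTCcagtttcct
ISG15, chr1:1013317-1013422, plus strand: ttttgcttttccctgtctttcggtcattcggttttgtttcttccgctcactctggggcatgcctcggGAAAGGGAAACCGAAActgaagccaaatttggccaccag
IFI6, chr1:27672219-27672372, minus strand: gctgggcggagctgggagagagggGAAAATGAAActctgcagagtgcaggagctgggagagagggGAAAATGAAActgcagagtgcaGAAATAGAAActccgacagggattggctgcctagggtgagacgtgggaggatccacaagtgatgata
B2M, chr15:44711337-44711486, plus strand: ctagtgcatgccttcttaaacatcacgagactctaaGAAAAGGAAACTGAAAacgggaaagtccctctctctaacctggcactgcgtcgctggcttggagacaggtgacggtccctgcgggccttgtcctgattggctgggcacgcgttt
In OAS3, SAMD9, ISG15, IFI6 and B2M the capitals run in the GAAA orientation, and in IFIT1 and IFIT3 they run as its reverse complement.

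Library totals ranged from 18161717 to 35128954 expected counts. The cells had the epithelial markers of their label, such as EPCAM and KRT8 (515.7 and 7057 CPM in vehicle). A pair of libraries stood apart and are treated with care throughout. In replicate 3 of Soshiho-tang at the high dose, 15 of 18 leukocyte markers were above their level in all 59 other libraries. PTPRC, which encodes the leukocyte antigen CD45, was at 1.26 CPM there and at most at 0.11 elsewhere, and HLA-DRA, a class II molecule, was at 3.92 and at most at 0.0520, while HLA-DPA1, CD2 and S100A8 were at 0 in all 59 others. The sum of the 18 markers, most of it lysozyme (LYZ), was 1600 CPM there, 1238 in the other high-dose library and 1471 to 1558 in vehicle. Of 6 red cell markers, 3 were above all other libraries there (HBB, HBA1 and HBA2), as was 1 of 5 fibroblast markers and none of the endothelial or epithelial ones. Replicate 2 of Yijin-tang at the low dose departed from its group along gene length, as described below. The library names in the labels fall into sets, and the vehicle libraries form a set of their own. A difference between an extract and vehicle therefore cannot be told apart from a difference between library sets. Both water extracts were in 1 set, so their comparison with each other and with their own lower doses stays within it. Nothing in the labels says that replicates were separate cultures, and the p-values measure only the spread between these libraries.

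The level of the genes in vehicle-treated HT29 spanned a wide range. Levels are compared between genes as CPM per kilobase of merged exon, which reads low where a gene has long, rarely used exons (mean ± SD, n = 3 libraries). LGALS3BP, a secreted glycoprotein, was highest at 205 ± 5.68, followed by B2M, the invariant light chain of class I molecules, at 48.8 ± 6.13 and BST2 (tetherin), which holds budding virus at the membrane, at 33.4 ± 3.79. ISG15, a ubiquitin-like modifier, was at 20.8 ± 1.53 and overlapped HLA-E at 19.7 ± 0.590. HLA-C followed at 17.4 and TRIM25, a ubiquitin ligase of the RIG-I pathway, at 13.0, which overlapped DTX3L at 12.6. PARP14 (10.2), OAS3 (10.1), IRF7 (9.94) and TRIM21 (9.49) formed a run in which neighbours overlapped. SAMD9 stood alone at 7.39, IFI6 (4.88), IFI35 (4.06) and OAS1 (3.68) overlapped in turn, and so did STAT2 (3.29), PARP9 (3.28) and IRF1 (3.23), above IFIT3 at 2.73. Below these came a run of 10 genes whose neighbours all overlapped, from IRF9 (1.93), PSMB8 (1.72), IFI27 (1.57), IFIH1 (1.51), IFI44 (1.40) and USP18 (1.35), the protease that removes ISG15, to OASL (1.29), IFIT5 (1.21), HLA-B (1.17) and TAP1 (1.06). At the bottom, HERC6 was at 0.909, IFIT2 at 0.837, IFIT1 at 0.758, DHX58 at 0.497, MX1 at 0.384, ISG20 at 0.338 and OAS2 at 0.277.

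**Figure D1:**
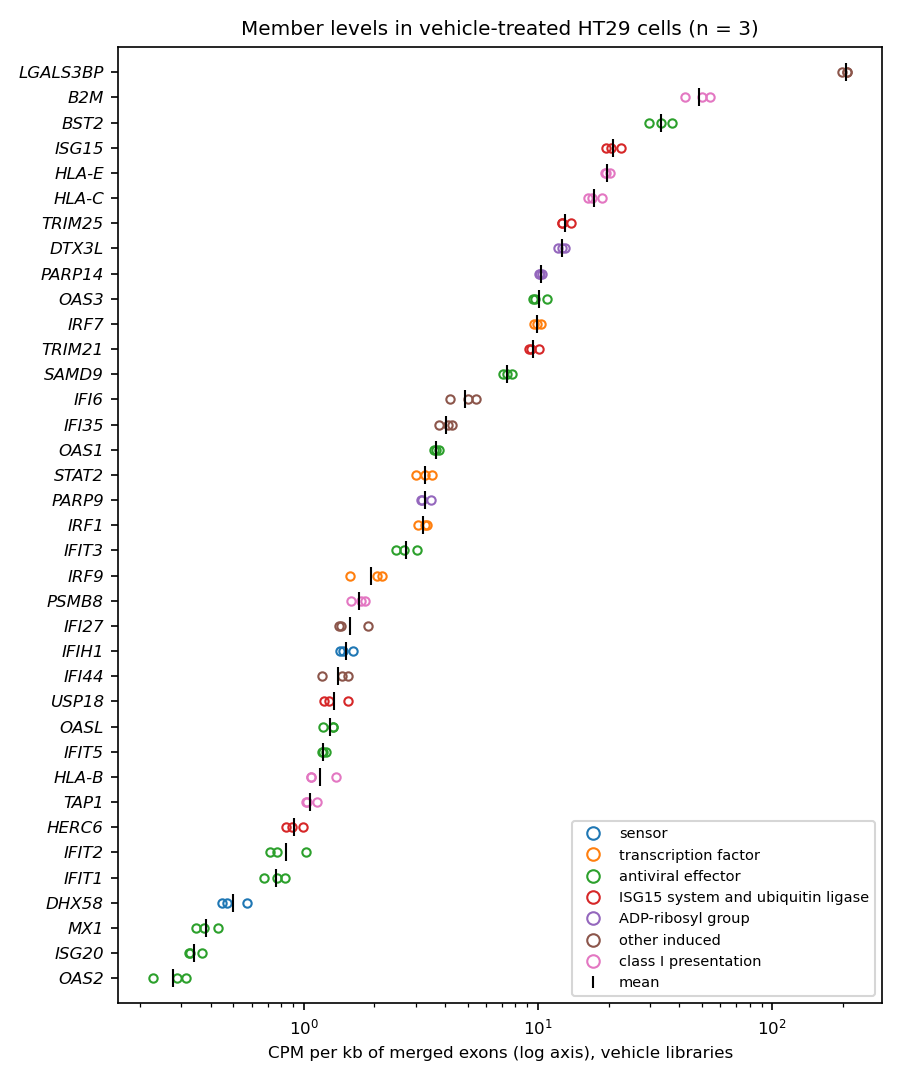
Level of each of the 37 genes in the 3 vehicle libraries, in CPM per kilobase of merged exon on a log axis (x), with genes in order of level (y), circles for libraries coloured by the gene's role and ticks for the mean. LGALS3BP sits highest at 205 and OAS2 lowest at 0.277.

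The genes of 1 antiviral family did not share a level. The oligoadenylate synthetases lie side by side on chromosome 12 of GRCh38: OAS1 at 112906777 to 112933222, OAS3 at 112938352 to 112973249 and OAS2 at 112978395 to 113011723. All make the second messenger that activates RNase L. In vehicle, OAS3 stood at 10.1, OAS1 at 3.68 and OAS2 at 0.277 CPM per kilobase. The class I genes were likewise spread, from B2M at 48.8 to HLA-B at 1.17 and TAP1, a subunit of the peptide transporter, at 1.06. Reads shared by HLA-B, HLA-C and HLA-E, or by USP18 and its near-identical copy, were divided between them by the authors' counting, so their levels are uncertain.

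The genes with a mean under 1 CPM were SAMD9L, XAF1, EPSTI1, UBE2L6, PSMB9, IFI44L, HERC5 and NLRC5. Their highest value in any of the 60 libraries was between 0.278 CPM for SAMD9L and 4.83 CPM for NLRC5. SAMD9L was the 1 gene that failed the filter. UBE2L6, the ISG15-conjugating enzyme, passed the test in Yijin-tang at the low dose against vehicle, with group means of 0.592 and 0.179 CPM. EPSTI1 passed in the comparison of high with low Soshiho-tang (log2 difference -2.84) and of Yijin-tang with Soshiho-tang at the high dose (2.68). Its highest group mean was only 0.429 CPM, in low-dose Soshiho-tang, and 1 of the 60 libraries had no count. Each of these comparisons includes a library that stood apart.

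Some of the low genes also varied most between replicates. Without the pair of libraries that stood apart, the SD within groups of log2 CPM (33 degrees of freedom) was 0.34 for OAS2, 0.28 for MX1, 0.23 for IFIT1 and 0.19 for each of IRF9, IFI27, IFI6 and DHX58. It was 0.03 for TRIM25 and 0.04 for HLA-E. Genes of a like level, within 1.25-fold of the same mean, had a median SD of 0.18 for OAS2, 0.15 for MX1 and 0.11 for IRF9. The SD of OAS2 was above 94.0% of its like-level genes, that of MX1 above 95.7% and that of IRF9 above 95.2%, whereas HERC6 was above 27.5% and IFIT5 above 2.38%. IFI27 (93.1%), OAS3 (92.4%) and IFIT1 (91.2%) were also above most of theirs, while IFI44 (45.2%) and IFIT2 (19.9%) were not.

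**Figure D2:**
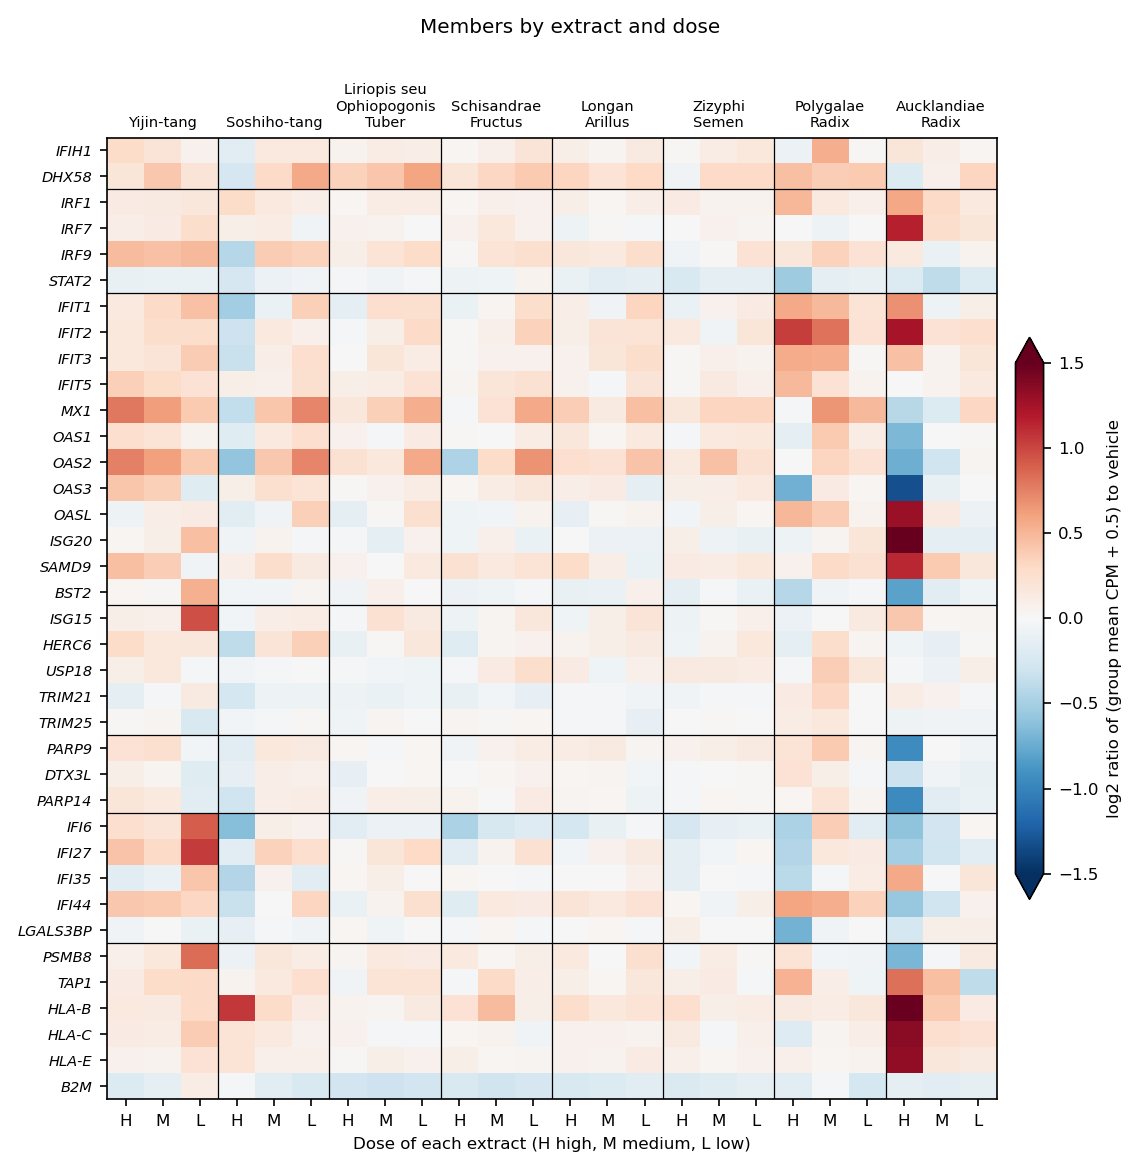
Log2 ratio of group mean CPM + 0.5 to vehicle for each of the 37 genes (rows, by role, y axis) in each extract and dose (columns, x axis; H high, M medium, L low), on a colour scale in log2 units that is clipped at its ends. Aucklandiae Radix at the high dose, 1 library, holds the strongest colours in both directions, with ISG20 beyond the end of the scale.

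High-dose Soshiho-tang libraries held less of the interferon-stimulated genes than low-dose ones. In this comparison, within 1 extract and 1 library set, 10 of the 37 genes fell and 1 rose by edgeR's quasi-likelihood test with Benjamini-Hochberg adjustment over all genes (adjusted p below 0.05), against 3.03% of all genes tested that fell and 3.26% that rose. The median log2 difference was -0.21 over the 37 genes and 0.00 over all genes, and 31 of the 37 were below 0. The genes that fell were the effectors OAS2, MX1, IFIT1, IFIT3, OASL and OAS1, the sensor DHX58, the transcription factor IRF9, HERC6, a HECT-domain protein related to the ISG15 ligase HERC5, and IFI44. The one that rose was HLA-B, a class I heavy chain. The 2 low-dose libraries also differed, with 26 of the 37 genes higher in replicate 2 than in replicate 3. Of all genes of 1 CPM or more, 51.1% were higher in replicate 2.

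MX1, a GTPase that blocks incoming viral particles (chr21:41420304-41459214), was at 2.7 and 2.18 CPM in the high-dose libraries (replicates 2 and 3), at 5.16 and 4.03 at the medium dose and at 7.94 and 3.75 at the low dose. Both high-dose values lay below every other value of the extract, and the low-dose libraries were far apart. The log2 difference of high from low was -1.27 (SE 0.30, adjusted p = 0.00577). OAS2 was at 1.07 and 0.884 CPM at the high dose, 2.27 and 2.62 at the medium dose and 4.29 and 2.15 at the low dose, a log2 difference of -1.72 (SE 0.42, adjusted p = 0.00729). Its groups did not overlap either, and its low-dose replicates were far apart too.

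IRF9, a DNA-binding partner of STAT2 (chr14:24161053-24166565), was at 5.12 and 5.49 CPM at the high dose, 9.42 and 9.87 at the medium dose and 11.2 and 7.66 at the low dose. The high-dose pair lay apart from the other 4 libraries, with a log2 difference of -0.82 from the low dose (SE 0.20, adjusted p = 0.00767). HERC6 (chr4:88378739-88443111) was at 4.19 and 3.69 CPM at the high dose, 5.97 and 6.22 at the medium dose and 7.24 and 6.47 at the low dose, with tight pairs throughout. Its difference was -0.80 (SE 0.14, adjusted p = 7.48e-05). DHX58, the RIG-I-like protein LGP2 (chr17:42101404-42112733), was at 1.49 and 1.55 CPM at the high dose, 2.75 and 2.12 at the medium dose and 3.26 and 2.91 at the low dose, a difference of -1.02 (SE 0.23, adjusted p = 0.00287). In each of the 3 genes both high-dose values lay below all medium-dose values, and the medium dose of IRF9 lay within the range of the low dose.

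The other 5 genes that fell had smaller or less even differences. IFIT1, which binds RNA with foreign 5′ ends, differed by -1.01 (adjusted p = 0.00947), IFI44 by -0.76 (0.0118), IFIT3 by -0.64 (0.0103), OASL by -0.58 (0.0059) and OAS1 by -0.44 (0.00487). OASL, a catalytically inactive relative of the synthetases, was at 4.19 and 3.76 CPM at the high dose, 4.21 and 4.46 at the medium dose and 5.82 and 6.05 at the low dose. OAS1 was at 16.8 and 15.2, then 21.1 and 19.3, then 24.0 and 19.4 CPM. Leaving out the high-dose library with leukocyte markers and the Yijin-tang library, 7 of the 37 genes fell and none rose (7.84% of all genes called in either direction). That fit has 1 high-dose library, which is assumed to vary like the other groups. HERC6 (-0.70, adjusted p = 0.00478), DHX58 (-1.04, 0.0226), IRF9 (-0.87, 0.0243) and IFI44 (-0.98, 0.00734) were among the 7, with IFI6 (-0.86), PARP14 (-0.33) and BST2 (-0.32). MX1 (-1.10, 0.0748), OAS2 (-1.57, 0.0675) and IFIT1 (-0.98, 0.0609) kept their direction without passing. With low-dose replicate 2 left out instead, 4 of the 11 calls were made, and without high-dose replicate 3 alone, 3. HERC6 and DHX58 passed whichever library was left out. With only the 2 compared groups in the fit, 1 of the 37 genes passed, HERC6 (adjusted p = 0.0428).

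**Figure D3:**
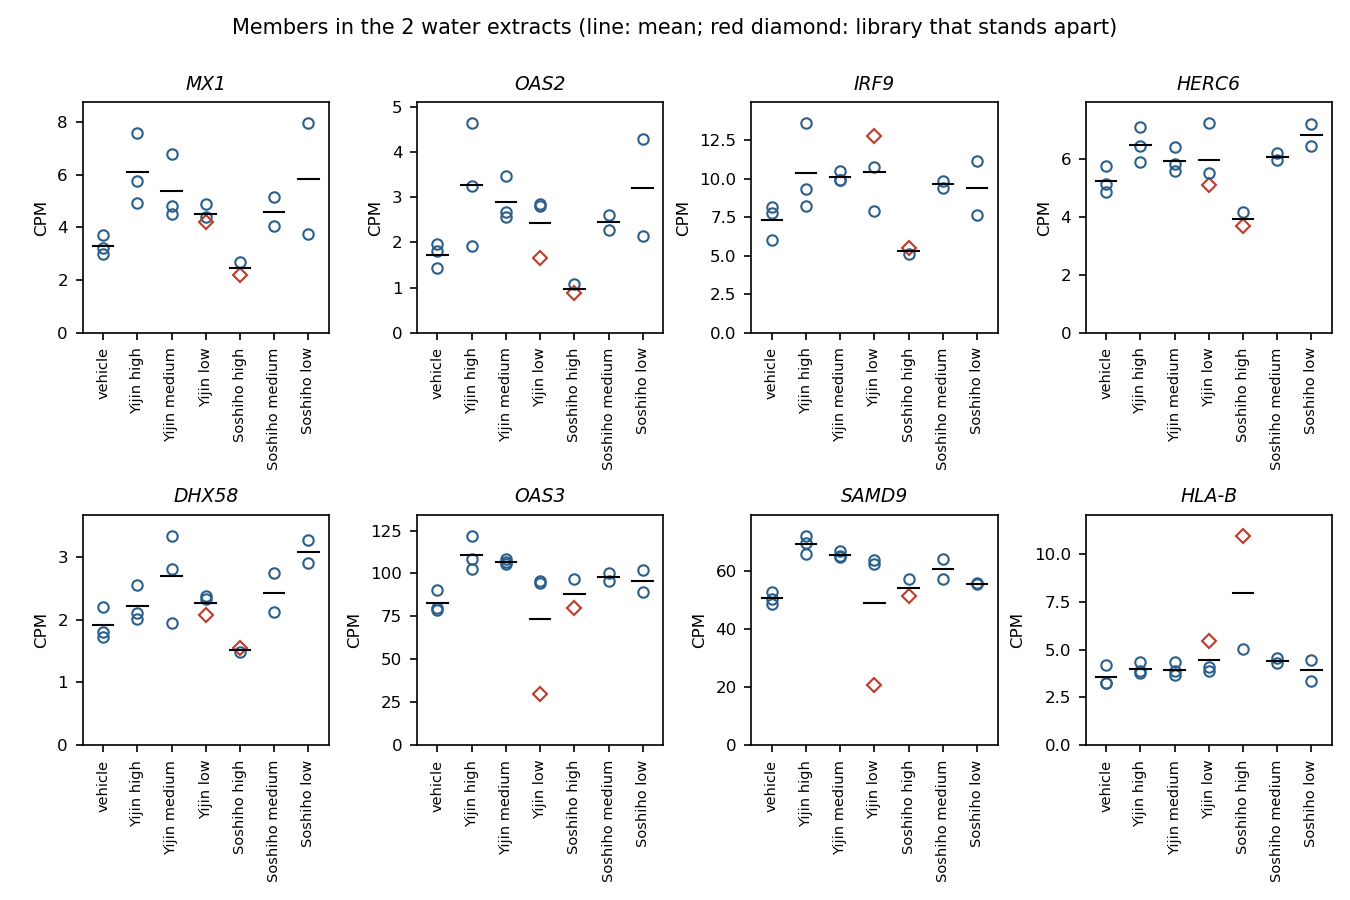
CPM in every library of vehicle, Yijin-tang and Soshiho-tang for 8 of the genes, with circles for libraries, red diamonds for the pair of libraries that stood apart and lines for group means (x axis, group; y axis, CPM from 0). For MX1, IRF9 and HERC6 the 2 high-dose Soshiho-tang libraries lie below all 3 high-dose Yijin-tang libraries.

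Yijin-tang and Soshiho-tang, given at the same dose and in 1 set by library name, separated on the same kind of genes. The labels do not say what a set stands for. Soshiho-tang has replicates 2 and 3 only, so replicate 1 of Yijin-tang has no counterpart of the same number. At 500 µg/mL, 10 of the 37 genes were higher in Yijin-tang and 1 lower (edgeR, adjusted p below 0.05), against 1.63% and 2.10% of all genes. The median log2 difference was 0.28 over the 37 genes and 0.00 over all genes, and 32 were above 0. The largest differences were in OAS2 (1.77, SE 0.40, adjusted p = 0.00436), MX1 (1.34, SE 0.28, 0.00223), IRF9 (0.97, SE 0.19, 0.00068), IFI44 (0.85, SE 0.18, 0.00251) and HERC6 (0.73, SE 0.13, 0.000163). This comparison uses the same Soshiho-tang libraries as the dose comparison above, so the 2 results are not independent.

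MX1 was at 7.58, 4.93 and 5.76 CPM in high-dose Yijin-tang, against 2.7 and 2.18 in high-dose Soshiho-tang and 3.70, 3.00 and 3.23 in vehicle. The extracts did not overlap, and vehicle lay between them. IRF9 was at 13.6, 8.22 and 9.34 CPM in Yijin-tang, 5.12 and 5.49 in Soshiho-tang and 8.17, 5.99 and 7.78 in vehicle, the same order. HERC6 was at 7.11, 5.92 and 6.48 CPM in Yijin-tang, 4.19 and 3.69 in Soshiho-tang and 4.88, 5.77 and 5.14 in vehicle. OAS2 was at 4.64, 1.93 and 3.26 CPM in Yijin-tang, with its lowest library near the vehicle values of 1.97, 1.42 and 1.81 CPM. Smaller differences passed for IFIT3 (0.55, adjusted p = 0.0323), IFIT2 (0.53, 0.0494), PARP14, an ADP-ribosyltransferase (0.48, 0.0297), IFIH1, the RNA sensor MDA5 (0.48, 0.0298), and OAS1 (0.45, 0.00204). With the replicate number as a block IFIT2 no longer passed (adjusted p = 0.0661). Without the pair of libraries that stood apart, IFI44 (1.07), IRF9 (1.03), HERC6 (0.63) and PARP14 (0.40) passed, IFI6 passed as well (1.08, adjusted p = 0.00669), and no gene was lower, with 4.93% of all genes called. Leaving out high-dose replicate 3 of Soshiho-tang or replicate 1 of Yijin-tang reduced the 11 calls to 3 and 6. IRF9 and HERC6 passed whichever library was left out. With only the compared groups fitted, 6 genes passed, among them MX1 (adjusted p = 0.0124), HERC6 (0.033) and IRF9 (0.0468).

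In high-dose Soshiho-tang 3 of the 37 genes were lower than in vehicle and 2 were higher, against 3.76% and 4.17% of all genes. The lower genes had small log2 differences, -0.46 for IFI35 (SE 0.15, adjusted p = 0.0404), -0.42 for HERC6 (SE 0.13, 0.0321) and -0.26 for STAT2, a transcription factor activated by type I interferon (SE 0.08, 0.028). IRF1, a transcription factor for class I and interferon genes, rose by 0.28 (SE 0.07, 0.00487), from 26.0, 24.0 and 25.6 CPM to 29.6 and 31.4. The median over the 37 genes was -0.17 and 28 were below 0, with the all-gene median at 0.00. Without Soshiho-tang high-dose replicate 3 the 5 calls became 1, and without vehicle replicate 2 or 3 they became 2 and 3. None passed with only the compared groups fitted.

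HLA-B (chr6:31269491-31357188) had the largest difference, 1.18 (SE 0.20, adjusted p = 6.54e-05). Its values were 4.2, 3.26 and 3.26 CPM in vehicle and 5.03 and 11.0 in high-dose Soshiho-tang. The second of these is the library with leukocyte markers, and leukocytes express HLA-B strongly. The part of those markers in the result was not tested, but the values without the library are as follows. Without it and the Yijin-tang library, HLA-B differed by 0.49 from vehicle (adjusted p = 0.139), by 0.36 from the low dose (0.397) and by -0.33 between Yijin-tang and Soshiho-tang (0.48), against 1.05 and -1.02 with all libraries for the last pair of comparisons. B2M was also high in that library, at 351 CPM beside 230 in the other high-dose library and 256, 303 and 330 in vehicle. Without the pair of libraries, 4 genes fell (log2 difference -0.79 for IFI6, -0.65 for IFI35, -0.36 for B2M and -0.27 for BST2) and IRF1 rose by 0.23, with 12.4% of all genes called. Fewer cells of a type and less RNA per cell cannot be told apart in these bulk libraries.

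In high-dose Yijin-tang 1 of the 37 genes was higher than in vehicle and none lower, with 0.557% and 0.491% of all genes called. IFIT5 was at 6.15, 6.25 and 6.66 CPM and at 4.78, 4.98 and 4.83 in vehicle, a log2 difference of 0.38 (SE 0.09, adjusted p = 0.0184), and the groups did not overlap. It did not pass in 5 of 6 fits with a library left out. The median over the 37 genes was 0.16 (all genes -0.01), 31 were above 0 and 12 had an unadjusted p under 0.05. Percentages of all genes, here and below, count adjusted calls and cannot be set against counts at an unadjusted p. DESeq2 called 2, and a fit of only the compared groups called 3, SAMD9, OAS3 and MX1, without IFIT5 (adjusted p = 0.136). Others did not overlap vehicle either and did not pass. SAMD9, a translation inhibitor of the antiviral response (chr7:93099513-93118023), was at 72.1, 69.8 and 66.0 CPM against 48.6, 52.9 and 50.4 in vehicle, with a difference of 0.45 (SE 0.16, adjusted p = 0.231). OAS3 was at 122, 102 and 109 CPM against 90.1, 78.8 and 79.9, a difference of 0.42 (adjusted p = 0.357). No vehicle library reached the lowest Yijin-tang value in either gene.

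Those calls changed when the pair of libraries was left out, 1 of which is in the low-dose group of the same extract and has SAMD9 at 20.6 and OAS3 at 29.6 CPM. The differences of SAMD9 and OAS3 from vehicle stayed the same and their SE was smaller. In high-dose Yijin-tang 8 genes then rose and none fell, with 7.16% of all genes called: SAMD9 (0.45, SE 0.06, adjusted p = 9.6e-07), OAS3 (0.42, SE 0.07, 0.000151), MX1 (0.89, 0.0127), IRF9 (0.52, 0.0245), IFI44 (0.47, 0.0327), IFIT5 (0.38, 0.00477), OAS1 (0.27, 0.0299) and PARP14 (0.18, 0.0281). At the medium dose 0 of 37 passed with all libraries (0.420% of all genes; 13 at an unadjusted p under 0.05 and 0 by DESeq2) and 4 without the pair (4.43%), which were SAMD9 (0.38, 6.39e-05), OAS3 (0.36, 0.00208), IFIT5 (0.30) and PARP9 (0.25). At the low dose SAMD9 (0.31, 0.00548) and IFIT2 (0.49, 0.034) passed without the pair, with 1.96% of all genes called. SAMD9 was thus above vehicle at all 3 doses of Yijin-tang in that fit, with values of 66.9, 65.0 and 65.1 CPM at the medium dose and 63.7 and 62.3 in the remaining low-dose libraries.

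With all libraries, low-dose Yijin-tang gave the most calls of any dose group against vehicle, and none of them passed once 1 library was left out. There, 10 of the 37 genes were called higher and none lower, against 8.58% and 3.49% of all genes. IFI27 (1.09), ISG15 (0.98), IFI6 (0.98), PSMB8 (0.89), BST2 (0.54), IRF9 (0.52), IFI35 (0.44), IFIT3 (0.40), HLA-C (0.39) and HLA-E (0.22) passed. None of the 10 passed without replicate 2, a fit with 2 low-dose libraries. ISG15 was at 20.5, 75.8 and 19.9 CPM in replicates 1 to 3 of the low dose and at 18.3, 21.2 and 19.3 in vehicle. IFI6, a small mitochondrial and endoplasmic reticulum protein, was at 4.52, 17.5 and 3.14 CPM, against 3.63, 4.35 and 4.69 in vehicle, and its difference turned to -0.13 without replicate 2. PSMB8, an immunoproteasome subunit, was at 5.96, 16.9 and 6.02 CPM, against 4.75 to 5.49 in vehicle. Replicates 1 and 3 lay near vehicle for ISG15 and IFI6 and a little above all vehicle libraries for PSMB8.

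The same library entered the comparison of high with low Yijin-tang, in which 5 genes were called higher and 5 lower, against 6.94% and 14.1% of all genes. OAS3 (0.60), SAMD9 (0.50), PARP14 (0.34), DTX3L (0.27) and TRIM25 (0.25) were called higher. ISG15 (-0.89), PSMB8 (-0.81), IFI35 (-0.62), BST2 (-0.51) and TRIM21 (-0.29) were called lower. None of the 37 passed without the pair of libraries (0.652% of all genes), and the sign of ISG15 (0.05) and BST2 (0.03) turned. With low-dose replicate 1 left out instead, which keeps replicate 2, 21 genes were called, and without low-dose replicate 3, 17. Without high-dose replicate 2 or 3 the counts were 4 and 5.

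Across the 37 genes, the log2 deviation of that library from the mean of the other 2 low-dose libraries followed merged exon length, with a Spearman rho of -0.70. Over 13167 genes of 1 CPM or more it was -0.50. Among the 45 libraries of the other groups of 3, the value for the same 37 genes ranged from -0.44 to 0.46. These points share a library and its depth, and the correlations are descriptions. Of the 37, 5 were above by at least 2-fold (IFI6, ISG15, IFI27, PSMB8 and BST2; median exon length 1119 bases) and 3 were below by as much (OAS3, SAMD9 and PARP14; 8251 bases). Over all genes 9.30% were above and 11.7% below by 2-fold. The part of length in the calls was not tested.

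**Figure D4:**
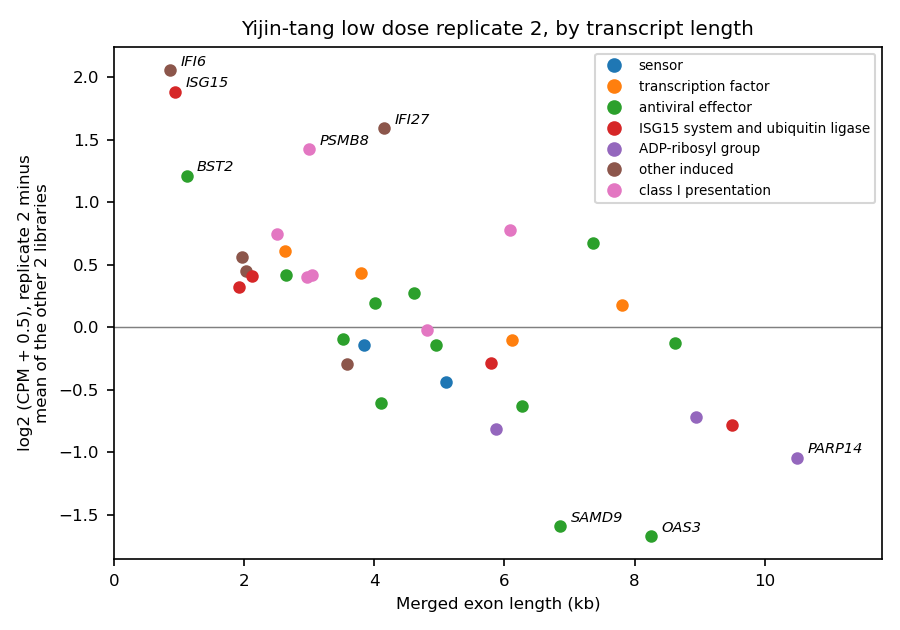
Log2 deviation of replicate 2 of low-dose Yijin-tang from the mean of the other 2 low-dose libraries (y axis) against merged exon length in kilobases (x axis), with 1 point per gene for the 37 genes, coloured by role. Short genes such as ISG15 and IFI6 lie above 0 and long ones such as OAS3 and SAMD9 below, with a Spearman rho of -0.70.

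The 4 ethanol extracts with replicates gave no call among the 37 genes against vehicle at the high dose. Liriopis seu Ophiopogonis Tuber had 0 calls (0.450% of all genes; 2 at an unadjusted p under 0.05 and 0 by DESeq2), Schisandrae Fructus 0 (0.693%; 0 and 0), Longan Arillus 0 (0.0829%; 2 and 0) and Zizyphi Semen 0 (0.160%; 1 and 0), all by edgeR. The percentages are of adjusted calls. No share of all genes at an unadjusted p is given, so unadjusted counts of the 37 genes have no background beside them. The medians over the 37 genes were 0.01, 0.01, 0.07 and 0.00 on the log2 scale. At the medium dose each of the 4 again had 0 calls by edgeR and by DESeq2, with 0.373%, 0.474%, 0.0118% and 0.0296% of all genes called and 2, 5, 1 and 1 members at an unadjusted p under 0.05. At the low dose all had 0 calls by both tools, with 0.491%, 0.160%, 0.107% and 0.0355% of all genes called and 7, 6, 5 and 1 members at an unadjusted p under 0.05. Soshiho-tang likewise had 0 calls by both tools at the medium dose (0.237%, 2 members unadjusted) and the low dose (0.101%, 10 members unadjusted). In the low-dose comparison 30 of its 37 genes were above 0, and at the medium dose 27. Low doses of other extracts were alike, with 29 above 0 in Zizyphi Semen, 29 in Schisandrae Fructus and 28 in Liriopis seu Ophiopogonis Tuber. Yijin-tang had 28 and Longan Arillus 25. All share the 3 vehicle libraries, which form a set of their own.

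Between the high and the low dose of the ethanol extracts no gene passed the test, and the medians over the 37 genes were -0.11 in Schisandrae Fructus, -0.10 in Liriopis seu Ophiopogonis Tuber, -0.06 in Longan Arillus and -0.05 in Zizyphi Semen, with all-gene medians between -0.01 and 0.00. In Schisandrae Fructus 0 genes were called by edgeR (0.189% of all genes) and 1 by DESeq2, and 8 had an unadjusted p under 0.05. OAS2 had the largest difference there, with 1.26, 0.657 and 1.44 CPM at the high dose, 2.03, 3.12 and 1.47 at the medium dose and 3.59, 2.78 and 2.78 at the low dose. High and low did not overlap, and the difference of -1.38 (SE 0.34) had an adjusted p of 0.0924. It passed without the pair of libraries (-1.36, adjusted p = 0.0387) and by DESeq2 (adjusted p = 0.0211). MX1 was at 2.88, 3.34 and 3.52 CPM at the high dose and 5.76, 5.33 and 4.38 at the low dose, again with no overlap (-0.68, adjusted p = 1). OAS2 (adjusted p = 0.0123) and MX1 (0.048) passed with only the compared groups fitted.

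In Liriopis seu Ophiopogonis Tuber 32 of the 37 genes were below 0 between the high and the low dose. There, 6 had an unadjusted p under 0.05, with 0 calls by both tools and 0% of all genes called. OASL had the lowest unadjusted p there (difference -0.41, SE 0.11, adjusted p = 1). In Zizyphi Semen 29 were below 0, 3 had an unadjusted p under 0.05 and 0 were called by both tools (0.0533% of all genes). HERC6 differed by -0.24 (SE 0.11). In Longan Arillus 22 were below 0, with 0 calls by both tools, 1 at an unadjusted p under 0.05 and 0.0178% of all genes called. SAMD9 went the other way there, at 61.5, 60.3 and 62.4 CPM at the high dose, 51.7, 54.8 and 56.8 at the medium dose and 45.1, 48.1 and 48.8 at the low dose. These groups did not overlap, and the high minus low difference was 0.37 (SE 0.17, edgeR adjusted p = 0.894). It passed without the pair of libraries (0.38, edgeR adjusted p = 5.93e-05). There OAS3 (0.25) was also higher at the high dose and ISG15 (-0.27) lower, against 5.45% of all genes. Vehicle had SAMD9 at 48.6 to 52.9 CPM, so the low dose lay at or below it. Merged exons are long in SAMD9 (6855 bases) and OAS3 (8251) and short in ISG15 (941). The part of length in these differences was not tested.

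When high doses of extracts from the same library set were compared, Schisandrae Fructus and Liriopis seu Ophiopogonis Tuber differed in 0 of 37 genes (0.0947% of all genes; 1 unadjusted, 0 by DESeq2), and Zizyphi Semen and Longan Arillus in 0 (0.0237%; 2 unadjusted, 0 by DESeq2). OAS2 was at a difference of -0.85 in Schisandrae Fructus (SE 0.35, adjusted p = 1), and DHX58 at -0.44 in Zizyphi Semen (SE 0.19, adjusted p = 1).

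Leaving out the pair of libraries brought a few of these genes past the test. B2M fell against vehicle at every dose of Liriopis seu Ophiopogonis Tuber (log2 differences -0.29, -0.31 and -0.28 from high to low dose) and of Schisandrae Fructus (-0.23, -0.30 and -0.25). Its values were 237, 258 and 233 CPM in high-dose Liriopis seu Ophiopogonis Tuber and 253, 259 and 249 in high-dose Schisandrae Fructus, against 256, 303 and 330 in vehicle, so the lowest vehicle library was among the treated ones. SAMD9 rose by 0.22 in high-dose and 0.20 in low-dose Schisandrae Fructus, by 0.28 in high-dose Longan Arillus and by 0.26 in medium-dose Soshiho-tang (adjusted p = 0.0287). DHX58 rose by 0.70 in low-dose Liriopis seu Ophiopogonis Tuber and HLA-B by 0.49 in medium-dose Schisandrae Fructus, while IFI6 fell in high-dose Schisandrae Fructus (-0.53). STAT2 fell in high-dose Zizyphi Semen (-0.23, with 3.15% of all genes called). In low-dose Longan Arillus TRIM25 fell (-0.12) and HLA-E rose by 0.13 (4.73% of all genes). TRIM25 has 9501 bases of merged exon and HLA-E 2975, and the part of length was not tested. All-gene shares in that fit were 4.85%, 5.57% and 6.21% for the 3 doses of Liriopis seu Ophiopogonis Tuber, 6.17%, 5.80% and 4.69% for Schisandrae Fructus, 2.22% for high-dose Longan Arillus, and 1.70% and 1.88% for medium- and low-dose Soshiho-tang, the last with 0 of 37 genes. All these comparisons share the 3 vehicle libraries.

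Aucklandiae Radix at the high dose, which has 1 library and therefore no replicate check, held several of the genes far from vehicle, in both directions. Ratios are of CPM + 0.5 on the log2 scale, intervals are exact 95% Poisson ones for counting error only, and the 2-fold mark was passed upward by 8 of the 37 genes and downward by 1, against 5.57% and 6.55% of all genes of 1 CPM or more. The median over the 37 genes was -0.02, as 17 were above and 20 below 0. Against the low dose, 6 were higher and 1 lower (5.55% and 6.33%). At the medium dose 0 of 37 passed the mark (0.113% and 0.136%), nor did any at the low dose (0.0756% and 0.0680%).

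The class I heavy chains were high together in that library. HLA-B was at 10.9 CPM (9.64 to 12.3) against 4.2, 3.26 and 3.26 in vehicle, a log2 ratio of 1.49. HLA-C was at 112 CPM (107 to 116) against 41.0, 42.6 and 47.1, a ratio of 1.35, and HLA-E at 147 (143 to 152) against 57.7, 57.2 and 60.5, a ratio of 1.33. The medium-dose library had 4.85, 52.1 and 65.8 CPM for the 3 genes and the low-dose library 3.94, 50.5 and 64.5, all far below the high dose. TAP1 was at 9.45 CPM (8.26 to 10.8), a ratio of 0.83 to vehicle and 1.21 to the low dose. B2M, which pairs with every heavy chain, was at 270 CPM (263 to 277), within the vehicle range, and PSMB8 was at 3.02 (2.37 to 3.81), a ratio of -0.68.

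NLRC5, the transactivator of class I genes (chr16:56989485-57083531), is among the genes under 1 CPM on average. It had 115 counts in that library, or 4.83 CPM (3.99 to 5.80), against 0.475, 0.262 and 0.347 CPM in vehicle, 0.474 at the medium dose and 0.311 at the low dose of the same extract. On the same scale its ratio was 2.63.

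Among the antiviral effectors, ISG20, an exonuclease that degrades single-stranded RNA, was at 12.9 CPM (11.5 to 14.4) against 2.37, 2.7 and 2.40 in vehicle and 2.22 and 2.21 at the lower doses, a ratio of 2.16 and the largest of the 37. OASL was at 11.9 CPM (10.5 to 13.4; ratio 1.3), IFIT2 at 8.74 (7.59 to 10.0; 1.23) and SAMD9 at 112 (108 to 116; 1.14). IRF7, the factor that amplifies interferon production, was at 59.2 CPM (56.2 to 62.4) against 26.1, 25.3 and 27 in vehicle, a ratio of 1.17. OAS3 went the other way, at 33.1 CPM (30.8 to 35.5) against 90.1, 78.8 and 79.9, a ratio of -1.31, and OAS1, OAS2, PARP14, PARP9 and BST2 were below 0 without reaching 2-fold (-0.67, -0.74, -0.95, -0.94 and -0.81). Members of 1 family thus lay on both sides, with OASL above and OAS1, OAS2 and OAS3 below vehicle. In the same library KRT20, an epithelial differentiation keratin, was at 708 CPM against 240 in vehicle, and PECAM1 at 8.74 against 1.22. Other epithelial markers went both ways. KRT19 (921 against 509) and CEACAM5 (20.8 against 6.79) were higher. CDX2 (1.18 against 4.54), VIL1 (96.1 against 163) and LGALS4 (294 against 452) were lower, and EPCAM was at 491 against 516. The 10 epithelial markers summed to 15817 CPM, against 12569 to 14674 in vehicle. The sum of the 4 endothelial markers was 9.12 CPM, against 0.983 to 1.57 in vehicle, nearly all of it PECAM1, with VWF at 0.378 and CDH5 and KDR at 0. That of the 18 leukocyte markers was 1062, most of it LYZ, with PTPRC and HLA-DRA at 0 and LAPTM5 at 0.714 against 0.318 in vehicle. The part of these in the result was not tested.

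**Figure D5:**
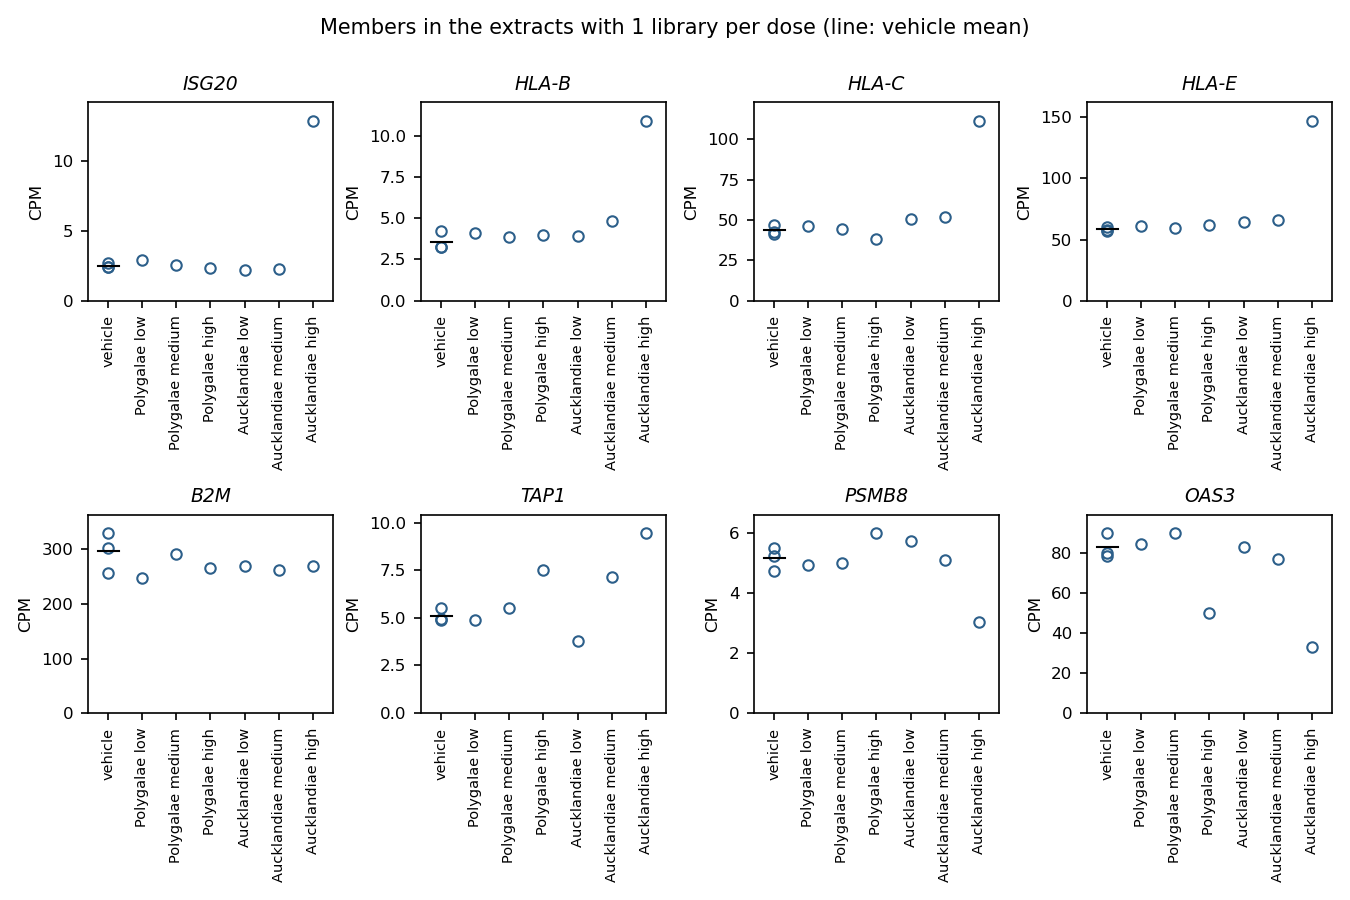
CPM (y axis, from 0) in the 3 vehicle libraries and in the low-, medium- and high-dose libraries of Polygalae Radix and Aucklandiae Radix (x axis) for 8 of the genes, with circles for libraries and a line for the vehicle mean. ISG20, HLA-B, HLA-C and HLA-E are high in high-dose Aucklandiae Radix alone, at 12.9, 10.9, 112 and 147, while OAS3 is lowest there at 33.1.

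Polygalae Radix at the high dose had 1 gene past 2-fold, IFIT2 at 7.6 CPM against 3.15, 4.2 and 2.95 in vehicle (ratio 1.04), with 0.189% of all genes higher and 0.824% lower. It did not pass the mark with vehicle replicate 1 or 3 left out. The medium-dose library had IFIT2 at 6.41 CPM and the low-dose library at 4.06. OAS3 (50.2 CPM, ratio -0.72) and LGALS3BP (ratio -0.71) were the lowest of the 37 genes. The same library had a summed level of the 10 epithelial markers of 8736 CPM, against 12569 to 14674 in vehicle, and of the 18 leukocyte markers of 963, against 1471 to 1558; their part in the result was not tested. No gene passed the mark at the medium dose (0.174% and 0.151% of all genes), at the low dose (0.0605% and 0.0831%), or between the high and the low dose (0.189% and 0.862%).

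The rest of the interferon pathway was followed through a list of 72 other genes, of which 57 were tested. Of 8 interferon ligand genes only IFNE, an epithelial interferon, passed the filter, at 3.46 CPM in vehicle, and IFNG had no count in any library. All 6 receptor chains and all 5 kinases and STATs on the list were tested. In Soshiho-tang, high against low dose, 7 fell and 1 rose, against 3.03% and 3.26% of all genes. CMPK2 (-1.26), TNFSF10, the death ligand TRAIL (-1.02), BATF2 (-0.92) and SP110 (-0.91) led the falls. IFNGR1, the interferon-gamma receptor chain, rose by 0.51 (edgeR, adjusted p = 7.21e-06). Without the pair of libraries TNFSF10 (-1.17), BATF2 (-0.94) and SP110 (-0.96) passed and CMPK2 (-0.85, adjusted p = 0.255) did not. Between Yijin-tang and Soshiho-tang at the high dose 6 were higher and 0 lower, against 1.63% and 2.10% of all genes. TNFSF10 (1.14), RIGI (0.48), RFX5 (0.45) and IKBKE (0.43) led. Against vehicle, high-dose Soshiho-tang had 2 higher and 5 lower, against 4.17% and 3.76% of all genes. Among them were TNFSF10 (-0.92), RFX5, a factor of class I and class II promoters (-0.55), IFNGR1 (0.46) and BATF2 (-0.60). High-dose Yijin-tang had IKBKE (0.39) and IFNGR1 (0.31) higher and 0 lower, against 0.557% and 0.491% of all genes. Low-dose Yijin-tang had 8 higher and 1 lower (8.58% and 3.49% of all genes), and high against low Yijin-tang 7 and 7 (6.94% and 14.1%). Without the pair of libraries these became 2 and 0, and 1 and 0, with 1.96% and 0.652% of all genes called in either direction. With all libraries no gene of the list was called in the other 21 comparisons. Without the pair some were, such as 6 higher and 0 lower in medium-dose Yijin-tang (4.43% of all genes in either direction). Between the doses of Longan Arillus 3 were higher and 1 lower (5.45%).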

How the data were processed

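Strand-specific RNA libraries of HT29 cells were read as 100 bp pairs, per the labels' protocols. Tools listed in the submitters' processing notes are STAR 2.7.3a and RSEM 1.3.3, with FastQC 0.11.9 and Trim Galore 0.6.5, on GRCh38; the annotation release and the strand setting are not given in the sources used here. The authors deposited expected counts per gene for 60 libraries, not normalized; 89.9% of values were whole to within 1e-09, and the rest hold shares of reads that match several genes. Depth was 18161717 to 35128954 expected counts per library.

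Groups came from the sample labels. Expected counts were rounded, filtered by filterByExpr (16890 genes kept), scaled by TMM and fitted with edgeR 4.0.16 (quasi-likelihood, R 4.3.3) to the 54 libraries of 19 groups with 2 or 3 libraries, with group as the only term (biological coefficient of variation 9.71%). P-values in 27 comparisons were adjusted over all genes by Benjamini-Hochberg and called below 0.05. Extracts with 1 library per dose were given as log2 ratios of CPM + 0.5 and a 2-fold mark, over 13231 genes. Gene positions and exon lengths are from GENCODE release 29 on GRCh38.

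Replicate numbers are shared across groups, but nothing says that they pair samples: correlations of same-numbered deviations ran from -0.27 to 0.34, and every pair was over 0.1 in 1 comparison. No replicates agreed within sampling noise (lowest chi-square per degree of freedom 1.92). Every gene with a mean of 1 CPM or more that was called with all libraries was named, and at most 4 of the other pathway genes per comparison. The genes and lists were chosen with earlier results of these data known. Alternatives were DESeq2 1.42.0, RLE scaling, no filter, only the compared groups, a replicate block, a robust spread, each library left out in turn, and both libraries that stood apart left out. For the single libraries they were a pseudocount of 2 and each vehicle library left out. Wortmannin, a positive control named in the series text, was not analysed here.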

Additional observations from a re-analysis of the deposited data

Results flagged for a closer look

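The direct comparison of Yijin-tang with Soshiho-tang at the high dose differed in 11 of the 37 genes, 10 higher and 1 lower, against 1.63% and 2.10% of all genes (edgeR's quasi-likelihood test, adjusted p below 0.05). The log2 difference, Yijin-tang minus Soshiho-tang, was 1.77 for OAS2, 1.34 for MX1, 0.97 for IRF9, 0.85 for IFI44, 0.73 for HERC6, 0.55 for IFIT3, 0.53 for IFIT2, 0.48 for PARP14, 0.48 for IFIH1 and 0.45 for OAS1, and -1.02 for HLA-B. These are the genes for which 2 water extracts at the same dose differed by a test of the difference itself. Without the 2 libraries that stood apart 5 genes passed (IFI6, IFI44, IRF9, HERC6 and PARP14), and HLA-B was at -0.33 (adjusted p = 0.48). HERC6 and IRF9 passed in every alternative run for this comparison and with each library left out. No group had 4 to 10 libraries, the size at which a highest or lowest library can be set against the range of its group.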

How the results depend on the processing

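Of 48 calls of the 37 genes, 46 held with DESeq2, 48 with RLE scaling, 36 with no filter, 6 with only the compared groups fitted, 47 with the replicate block, 47 with a robust spread and 11 without the 2 libraries that stood apart; 4 held whichever library was left out. Changes in the counts of called genes included the following. For the medium and low doses the counts are calls summed over 12 separate comparisons with vehicle, in which a gene can count more than once (10 with all libraries). DESeq2 called 2 in high-dose and 12 in low-dose Yijin-tang against vehicle. It called 12 between doses of Yijin-tang, 12 between the 2 water extracts at the high dose and 1 between doses of Schisandrae Fructus. No filter gave 1 in high-dose Soshiho-tang and 1 between doses of Schisandrae Fructus. With only the compared groups fitted, high-dose Yijin-tang had 3, high-dose Soshiho-tang 0, high against low Yijin-tang 0, Soshiho-tang 1, Schisandrae Fructus 2 and Longan Arillus 1, Yijin-tang against Soshiho-tang 6, and the 12-comparison sum was 2. Without the 2 libraries, the counts against vehicle at the high dose were 8 for Yijin-tang, 1 for Liriopis seu Ophiopogonis Tuber, 3 for Schisandrae Fructus, 1 for Longan Arillus and 1 for Zizyphi Semen; between doses they were 0 for Yijin-tang, 7 for Soshiho-tang, 1 for Schisandrae Fructus and 3 for Longan Arillus; Yijin-tang against Soshiho-tang had 5 and the 12-comparison sum was 16. The sign of 3 differences turned: IFI6 in low-dose Yijin-tang (-0.13), and BST2 (0.027) and ISG15 (0.053) between doses of Yijin-tang. With single libraries left out, IFI6 ranged from -0.14 to 1.37, BST2 from -0.72 to 0.026 and ISG15 from -1.20 to 0.052. Counts then ranged from 0 to 1 in high-dose Yijin-tang, 1 to 4 in high-dose Soshiho-tang, 0 to 21 and 3 to 9 between doses of Yijin-tang and Soshiho-tang, 3 to 9 between the 2 extracts, and 2 to 18 for the 12-comparison sum (2 without low-dose Yijin-tang replicate 2, 18 without replicate 1 and 5 without vehicle replicate 1 or 2). The cause was not tested. With the replicate block the counts were 1, 5, 10, 11, 10 and 10 in that order and 0 elsewhere, and the block ended 1 call, IFIT2 between the extracts. High-dose Polygalae Radix had 0 genes past 2-fold with a pseudocount of 2 and 0 to 1 with a vehicle library left out; high-dose Aucklandiae Radix had 8 with a pseudocount of 2 and 9 with each vehicle library left out. Depth limits the genes near 1 CPM most.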
